A study of Mus musculus with 24 samples.

Results

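The 10 genes described here encode bone morphogenetic protein (BMP) ligands of the dorsal telencephalic midline and the readouts of their signal, and they were taken by name: the ligands Bmp4, Bmp5, Bmp6 and Bmp7, the inhibitors Bambi and Smad6, and the response genes Msx1, Msx2, Id1 and Id3. They are 10 of the 51912 genes in the deposited table, and all 10 were among the 16454 that passed a filter on low values (10 or more normalized counts in 4 or more of the 24 libraries). The table holds 24 bulk RNA-seq libraries of dissected mouse archicortex (ARK), 4 in each of 6 groups, all on a mixed C57BL/6J;MF1 background. The Sox9fl/fl;Sox1Cre mutants and their Sox9+/+;Sox1Cre controls were taken at E12.5 and at E13.5, and the Sox9fl/fl;NestinCre mutants and their Sox9+/+;NestinCre controls at E13.5, so that the controls carried the Cre allele without the floxed one. In the NestinCre line Sox9 is lost later and is largely kept in the cortical hem (CH), which the earlier Sox1Cre driver covers. The libraries held between 16163560 and 49445219 reads on genes, and the lowest read number behind any value of the 10 genes was 114 (Msx2 in replicate 1 of the E13.5 Sox1Cre mutants). Nothing in the sample descriptions says which libraries came from the same litter, so the p-values measure the spread between these libraries.

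BMPs are secreted ligands of the TGF-beta superfamily that bind pairs of type I and type II serine/threonine kinase receptors. The activated receptor phosphorylates Smad1, Smad5 and Smad9, which enter the nucleus with Smad4 and switch on genes such as Id1, Id3, Msx1, Msx2, Smad6 and Bambi. Smad6 and Bambi in turn damp the pathway, the former inside the cell and the latter as a receptor-like decoy in the membrane. In the embryonic forebrain the ligands are made by the roof plate, the CH and the choroid plexus next to the hippocampal primordium, and they pattern this dorsal midline together with Wnt proteins of the CH.

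Promoter sequence is shown for Bmp4, the 1 of the 4 ligands among the 10 genes called lower at E13.5 than at E12.5 in the controls, and for Msx1, a response gene not called there. RefSeq promoter windows on GRCm38.p6 were found for 7 of the 10 genes (Bmp4, Bmp5, Bmp6, Msx1, Msx2, Id3 and Smad6). Each sequence gives the 250 bases before the annotated start on the strand of the gene, for Bmp4 at chr14:46390670-46390919 and for Msx1 at chr5:37824586-37824835, both on the minus strand. Capitals mark GGAGCC on either strand, a sequence bound by the Smad1 and Smad5 complex in known BMP response elements.
Bmp4: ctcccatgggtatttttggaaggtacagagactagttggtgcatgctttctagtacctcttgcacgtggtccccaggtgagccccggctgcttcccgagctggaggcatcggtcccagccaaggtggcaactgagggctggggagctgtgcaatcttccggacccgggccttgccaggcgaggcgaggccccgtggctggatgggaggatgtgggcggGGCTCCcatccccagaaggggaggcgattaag
Msx1: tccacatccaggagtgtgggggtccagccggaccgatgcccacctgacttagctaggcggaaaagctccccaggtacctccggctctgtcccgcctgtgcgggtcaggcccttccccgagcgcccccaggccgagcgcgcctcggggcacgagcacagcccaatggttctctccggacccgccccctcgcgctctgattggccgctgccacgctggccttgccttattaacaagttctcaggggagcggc
GGAGCC was present in 4 of the 7 windows (Bmp4, Msx2, Id3 and Smad6, with 2 matches each in Msx2 and Smad6), and in 26% of all 32851 promoter windows of this length. GGCGCC, the related palindrome, was in 0 of the 7 windows and in 9.59% of all windows. GTCTG, the Smad4 element, was in 3 (Bmp5, Bmp6 and Id3) and in 42.2% of all windows, and AACAAT, which SOX proteins can bind, was in 1 (Smad6) and in 9.42% of all windows. All 4 were searched on both strands, and matches of different motifs can share at most 1 base. The Ensembl models of Msx2 (starting at chromosome 13 position 53473074, minus strand) and Id3 (chromosome 4 position 136143497, plus strand) start upstream of the RefSeq starts, so their windows lie inside transcribed sequence and are not shown, and the window of Bmp6 also lies inside its Ensembl model. These matches describe the letters of the windows and are not binding sites.

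Levels between genes were compared per kilobase of exon (the mean normalized count divided by the summed exon length). In E12.5 Sox1Cre controls Id3 was the most abundant of the 10, at 2423 ± 543 normalized counts per kb (SD, n = 4), and it lay apart from all the others. Id1 followed at 971 ± 361, Bmp7 at 709.5 ± 99.6 and Msx1 at 607 ± 141 per kb, and neighbours among these 3 overlapped. Bmp4, Msx2, Bmp5, Bmp6 and Smad6 formed a second overlapping run between 249 ± 64.8 and 153 ± 18.5 per kb, and Bambi was lowest, at 59.9 ± 9.06 per kb. Bmp7 was therefore the ligand with the highest level per length in these libraries. In E13.5 Sox1Cre controls Id3 was again apart at the top (1104 ± 293 per kb) and Bambi apart at the bottom (44.4 ± 9.25 per kb), while Msx2 had moved from the sixth to the ninth place (89.03 ± 32.3 per kb). The plot of the 10 genes by library shows normalized counts, not divided by length, and the spread within each group.

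**Figure D1:**
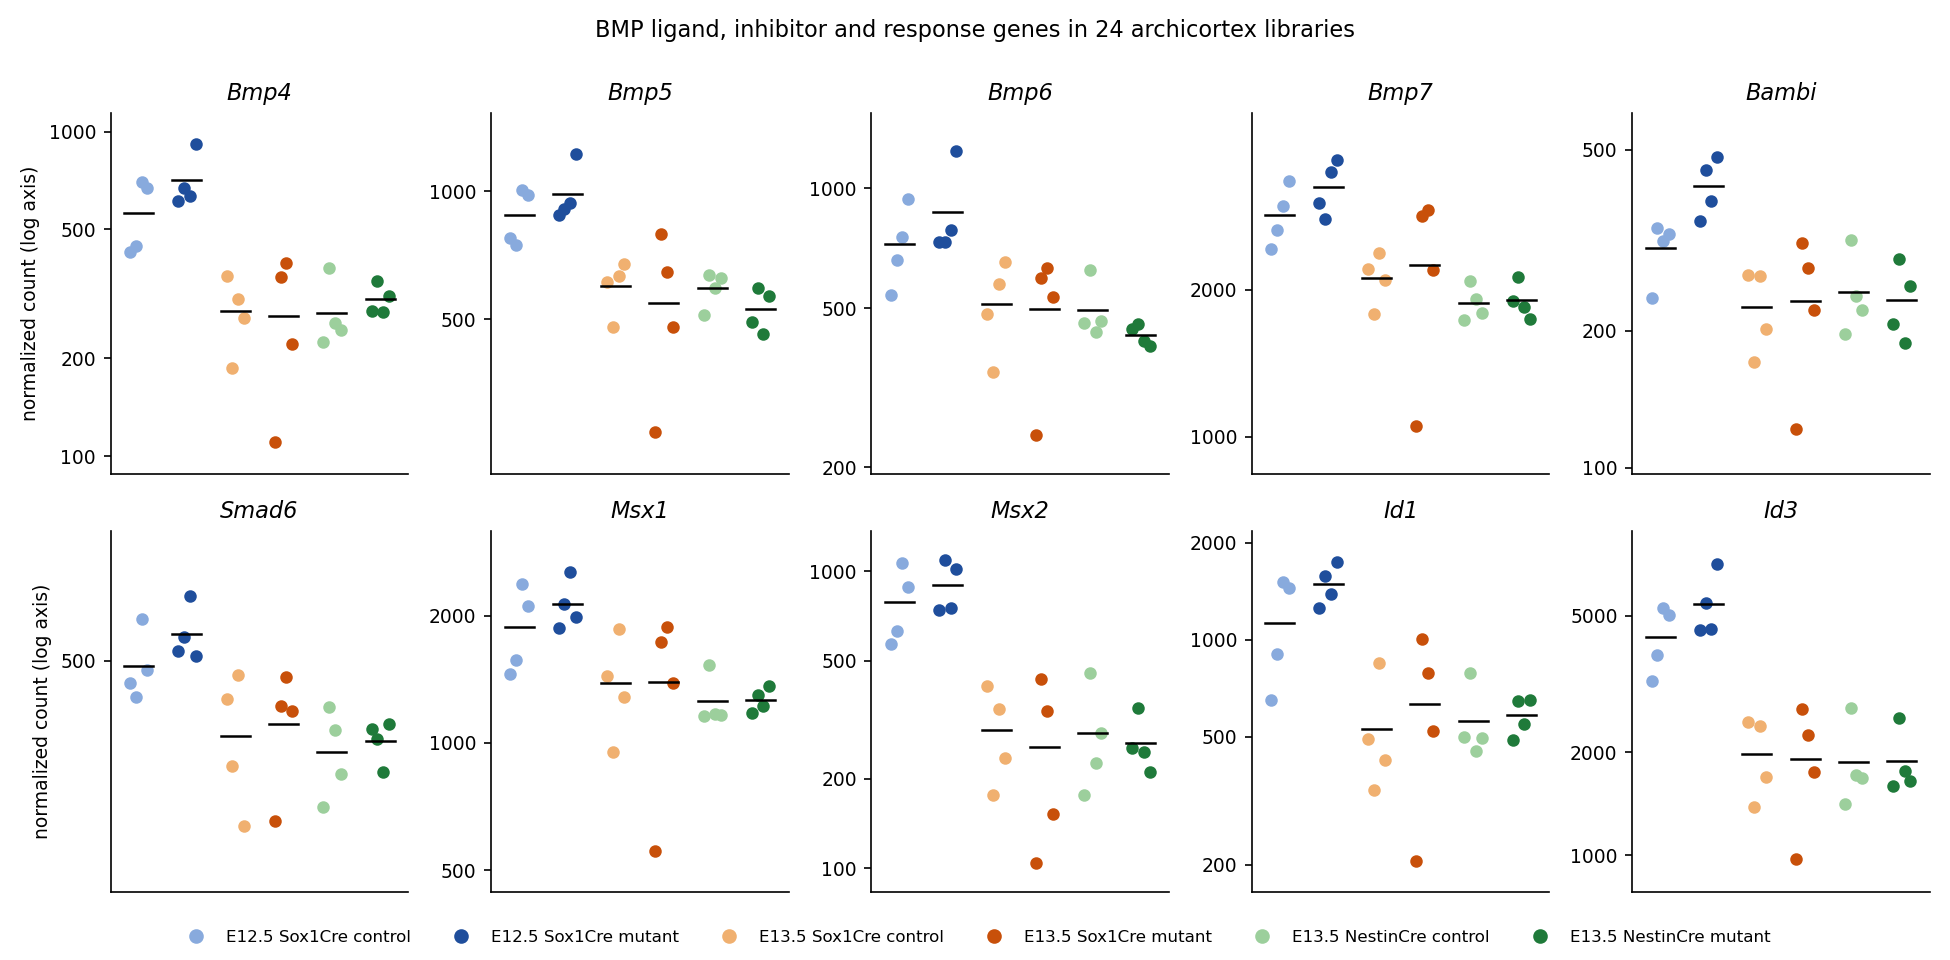
Normalized count (log axis) of each of the 10 genes in 24 libraries, with 1 point per library, colours for the 6 groups and a bar at each group mean. The means of the E12.5 groups (blue) lie above those of the E13.5 groups for every gene, while single libraries of both ages overlap for several. Replicate 1 of the E13.5 Sox1Cre mutants is the lowest point for 9 of the 10 genes.

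Sox9, the gene targeted in these mice, was measured first as a check of the genotypes. Its normalized counts were 4391, 5265, 4237 and 4194 in E12.5 Sox1Cre controls and 2785, 1733, 2593 and 1928 in their mutants. At E13.5 they were 5218, 5912, 5449.6 and 5731 in Sox1Cre controls, 3563, 2828, 3384 and 3677 in their mutants, 5636, 4979, 4586 and 5406 in NestinCre controls and 3089, 2997, 3083 and 3369 in their mutants. Every mutant library lay under every control library of its own line and age. The log2 change was -1.02 ± 0.12 (SE) at E12.5, -0.74 ± 0.12 at E13.5 with Sox1Cre and -0.71 ± 0.12 with NestinCre (adjusted p = 6.28e-05, 0.0021 and 0.0297, limma with Benjamini-Hochberg adjustment over 16454 genes).

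One library stood apart before any comparison was made. Replicate 1 of the E13.5 Sox1Cre mutants held the lowest value of its group for 10 of the 10 genes and the lowest of all 24 libraries for 9 of them. The other 3 mutants of its group had, on average, 2.93 times its Bmp4, 2.53 times its Bmp7, 3.74 times its Id1 and 1.53 times its Smad6. In the same library Ttr, the choroid plexus marker, was at 5266 normalized counts against a mean of 59529 in the other 3, the CH marker Lmx1a at 596 against 1711 and the endothelial receptor Kdr at 1709 against 3968. Sox9 was at 3563 against 3296. What these shifts contribute to the BMP values of that library was not tested, and the changes of the 10 genes in E13.5 Sox1Cre mutants are given with and without it.

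The first question was whether loss of Sox9 changed the BMP genes of the ARK. None of the 10 genes passed the test in any of the 3 comparisons of mutants with their own controls. In Sox1Cre mutants at E13.5 the limma test called 0 of 10, where 152 of all genes tested (0.924%) passed, and 0 of 10 had an unadjusted p under 0.05, against 11.7% of all genes. In NestinCre mutants at E13.5 it called 0 of 10 (0.0669% of all genes) and 0 of 10 at an unadjusted p under 0.05 (6.47% of all genes). In Sox1Cre mutants at E12.5 it again called 0 of 10 (0.723% of all genes), with 0 of 10 at an unadjusted p under 0.05, against 2217 of the 16454 genes tested. Among the markers of other cell types, 1 gene passed in a comparison of mutants with controls, Ebf3 of the Cajal-Retzius cell list, which fell in Sox1Cre mutants at E13.5 (log2 change -0.32, adjusted p = 0.0352, limma). Replicate 2 of the NestinCre mutants had summed ventral telencephalon markers of 683 normalized counts, against 93.2, 46.7 and 45.4 in its group. It was highest of its group for 7 of the 10 BMP genes. Without it their median log2 change was -0.08, against 0.02 with it. The part of ventral cells in these values was not tested. edgeR and DESeq2 on the recovered reads also called 0 of 10 in each of the 3 comparisons. In bulk tissue, fewer cells of a type and less RNA per cell cannot be told apart.

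Among the ligands, Bmp4 had normalized counts of 110.4, 356, 394 and 222 in E13.5 Sox1Cre mutants and 359, 187, 306 and 266 in their controls. The groups overlapped almost fully, and the log2 change was -0.17 with a 95% interval from -0.78 to 0.45 (adjusted p = 0.896), and 0.21 without replicate 1 of the mutants. With NestinCre it was 0.16 (-0.45 to 0.78), from values of 279.7, 347, 278 and 313 in mutants and 224, 380.4, 257 and 244 in controls. Bmp7, the most abundant ligand, had values of 1050.5, 2836, 2922 and 2201 in E13.5 Sox1Cre mutants and 2204, 1782, 2384 and 2092 in their controls. Its log2 change was -0.01 (95% interval -0.44 to 0.43), and without replicate 1 of the mutants it was 0.32 (adjusted p = 0.148, limma). Bmp5 and Bmp6, a closely related pair of ligands, had log2 changes of -0.23 (-0.68 to 0.22) and -0.10 (-0.62 to 0.43) with Sox1Cre and of -0.17 (-0.62 to 0.28) and -0.19 (-0.72 to 0.33) with NestinCre at E13.5. Without that replicate the Sox1Cre values were 0.07 and 0.22. Exons of Bmp6 share 224 bases with Txndc5 on the opposite strand, which had a mean of 3341 normalized counts against 589 for Bmp6, and since the strand setting of the counting is not given in the sources used here, some Bmp6 reads may belong to Txndc5.

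Among the response genes, Msx2, a homeobox gene induced by BMPs, had values of 104, 433, 338 and 153 in E13.5 Sox1Cre mutants and 411, 176, 345 and 236 in their controls. Both groups ran over more than a factor of 2 and overlapped, and the log2 change of -0.33 had a 95% interval from -1.104 to 0.44, and it was 0.025 without replicate 1 of the mutants. Msx1, its close relative, had a log2 change of -0.09 (-0.66 to 0.47), and 0.30 without that replicate. Id1 and Id3, which encode inhibitors of basic helix-loop-helix factors and of differentiation, had log2 changes of 0.13 (-0.64 to 0.89) and -0.10 (-0.66 to 0.46), and 0.59 and 0.19 without it. Of the inhibitors, Bambi had -0.02 (-0.50 to 0.46) and Smad6 0.06 (-0.26 to 0.38), and 0.27 and 0.21 without it. The median over the 10 genes was -0.10, against -0.0046 over all genes tested, and without replicate 1 of the mutants it was 0.22, with 10 of 10 genes above 0 and still 0 called. It was -0.23 without replicate 2 of the mutants and -0.23 without their replicate 3. Without replicate 2 of the controls it was -0.26. In these fits 1, 0 and 1 of 10 genes were above 0, with 0 called.

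At E12.5 all 10 genes had a mean above that of the controls in Sox1Cre mutants, by log2 changes from 0.16 (Smad6) to 0.48 (Id1), with a median of 0.24 against 0.002 over all genes tested. The 10 genes vary together from library to library, so these are not 10 independent observations. Sex was unbalanced in the comparisons of mutants with controls, with Xist in 4 of 4 controls and 2 of 4 mutants of the Sox1Cre line at E12.5, in 0 of 4 and 2 of 4 at E13.5, and in 1 of 4 and 2 of 4 of the NestinCre line. With log2 Xist as a covariate the median of the 10 genes was 0.40 for Sox1Cre at E12.5, -0.22 at E13.5 and -0.07 for NestinCre (0.02 without it), and 0 of 10 were called in each. Bambi, the membrane decoy, had values of 349, 451, 386 and 483 in the mutants and 236, 338, 315 and 327 in the controls. It was the 1 gene of the 10 whose groups did not overlap, where 4.38% of all genes tested were non-overlapping and higher in mutants. Its log2 change was 0.46 ± 0.23 (SE) with an adjusted p of 0.395 in limma, and the exact two-sided permutation test gave p = 0.0286, the smallest that 35 divisions of 8 libraries allow. Bambi was singled out after its values were seen, and it did not pass the correction over all genes. Id1 had values of 1255, 1581, 1384 and 1739.8 in mutants and 649, 899, 1505 and 1449.8 in controls, which overlapped (log2 change 0.48, 95% interval -0.28 to 1.24). The CH markers were also above their controls at this age without passing the test (Wnt8b by 0.19 ± 0.25 and Lmx1a by 0.15 ± 0.27 on the log2 scale, 0 of 9 called), and with their mean level as a covariate the median change of the 10 genes was 0.09. The choroid plexus markers had a median log2 change of 0.46 in the same comparison, with 0 of 9 called and summed normalized counts of 33962 ± 9798 in mutants and 23423 ± 5676 in controls (SD, n = 4), and their part in the BMP values was not tested.

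The difference between the E13.5 changes in the 2 Cre lines was tested directly and called 0 of 10 genes (0.0425% of all genes; 0 of 10 at an unadjusted p under 0.05, against 8.27% of all genes). The difference between the changes at E13.5 and at E12.5 in the Sox1Cre line also called 0 of 10, as it did 0% of all genes (0 of 10 at an unadjusted p under 0.05, against 7.4%). For Bambi this difference was -0.47 ± 0.33 on the log2 scale and for Msx2 it was -0.55 ± 0.53, and without replicate 1 of the E13.5 mutants these were -0.19 and -0.20. The median of this difference over the 10 genes was -0.38, and -0.07 without that replicate, while the median difference between the Cre lines was -0.04, and 0.26 without it. With Xist as a covariate the 2 medians were -0.70 and -0.11, and with array weights 0.09 and 0.25. Without replicate 2 of the E13.5 Sox1Cre mutants they were -0.62 and -0.26. Sox1Cre and NestinCre controls at E13.5 differed in 0 of 10 genes (0.243% of all genes), with log2 differences between -0.13 and 0.16. Of these, 8 of 10 were above 0, with a median of 0.04. With the mean level of the CH markers as a covariate all 10 were below 0, with a median of -0.20 and again 0 called. Over the 3 comparisons of mutants with controls, the 95% intervals of all 10 genes lay between -1.104 and 1.24 on the log2 scale, which is between 0.465 and 2.36 times the control level.

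**Figure D2:**
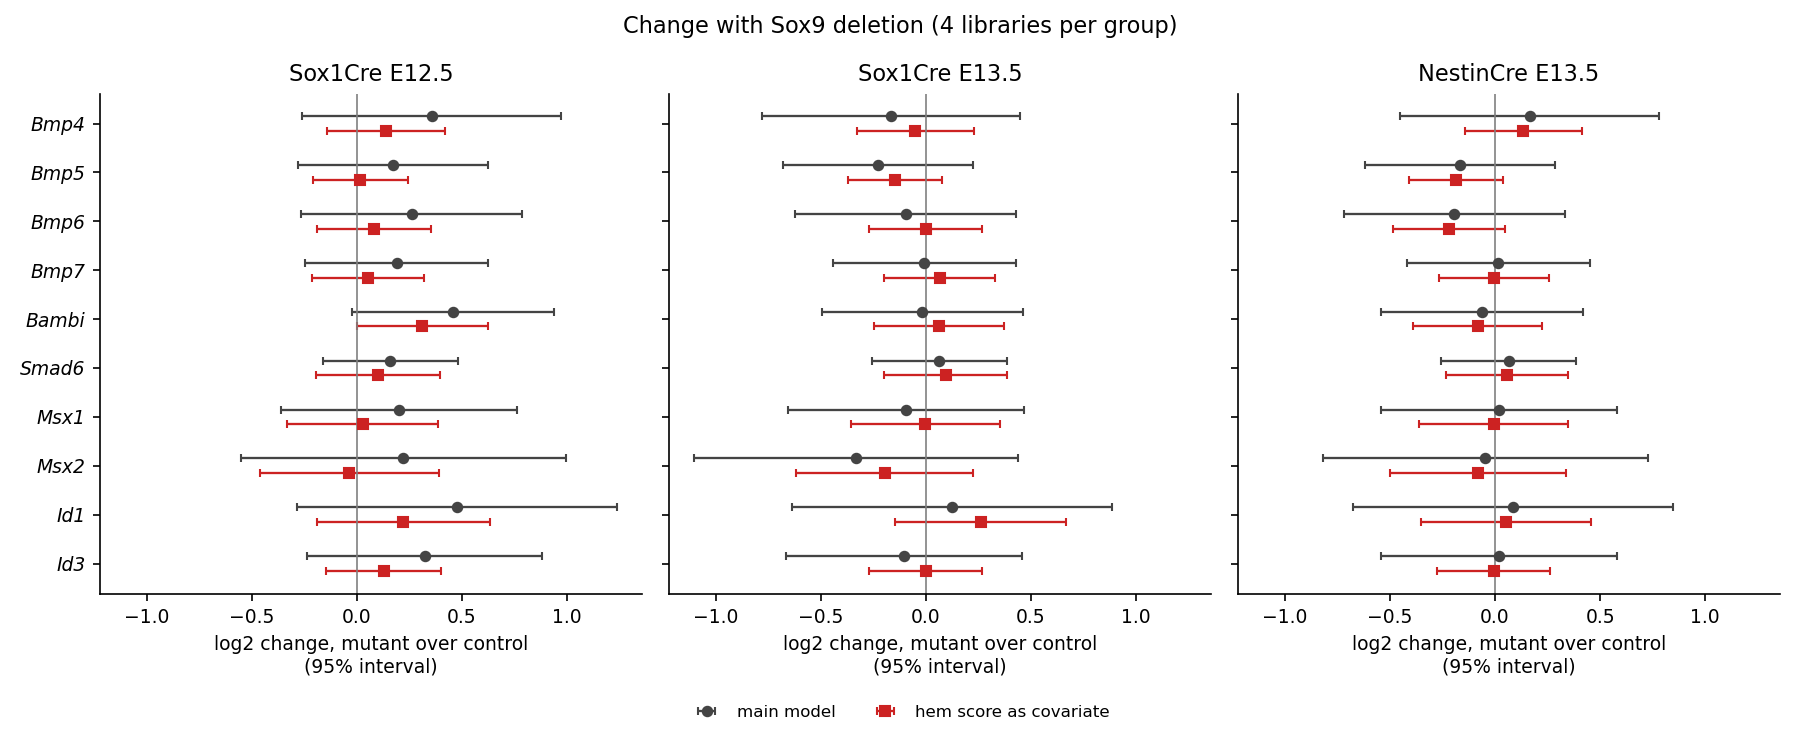
Log2 change, mutant over control, of the 10 genes in the 3 comparisons, with 95% intervals from limma in the main model (grey) and with the CH marker score as a covariate (red). The main intervals of all 10 genes include 0 in the 3 panels, and the red intervals are narrower. The red interval of Bambi at E12.5 (0.0004 to 0.62) does not include 0.

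The second question was how these genes changed between E12.5 and E13.5. In Sox1Cre controls 3 of the 10 genes fell, Id3, Msx2 and Bmp4, where 5.17% of all genes tested were called lower. All 4 E12.5 controls and 0 of 4 E13.5 controls expressed Xist, so sex and age cannot be told apart there, and with Xist as a covariate 0 of 10 genes were called. The groups did not overlap for 5 of 10 genes (Bmp4, Bmp5, Bmp7, Msx2 and Id3, all lower), against 8.74% of all genes. In Sox1Cre mutants 10 of the 10 genes fell, where 12.1% of all genes were called lower, and 8 of 10 did not overlap (10.8% of all genes); this comparison was added after the values had been seen. In a fit of the compared groups alone, 3 of 10 were called in the mutants (Bmp4, Msx2 and Id3). That fit called 2133 of all genes tested, against 4263 in the main fit. The other 7 genes in the controls had log2 changes from -0.36 (Smad6) to -1.099 (Id1, adjusted p = 0.0558), and the median over the 10 was -0.52 in controls and -0.93 in mutants, against -0.0016 and -0.0079 over all genes tested. The change with age was not shown to differ between the genotypes, since that is the same difference of 2 changes which called 0 of 10 genes above.

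Msx2 changed most in both genotypes. Its normalized counts were 568, 629.5, 1068 and 888 in E12.5 controls and 411, 176, 345 and 236 in E13.5 controls. The highest E13.5 library was thus under the lowest E12.5 library, and the level at E13.5 was 0.364 times that at E12.5 (log2 change -1.46 ± 0.37, adjusted p = 0.0156, limma). In mutants its values were 744, 1096, 752 and 1022 at E12.5 and 104, 433, 338 and 153 at E13.5, again without overlap, a level of 0.248 times (log2 change -2.01 ± 0.37, adjusted p = 0.000811). Msx1 by contrast had values of 1455, 1572, 2375 and 2114 in E12.5 controls and 1442, 953, 1861 and 1285 in E13.5 controls, which overlapped. Its log2 change was -0.45 ± 0.27 in controls (adjusted p = 0.299) and -0.75 ± 0.27 in mutants (adjusted p = 0.0454). Without replicate 1 of the E13.5 mutants the latter was -0.35 and did not pass (adjusted p = 0.177, limma), and it passed in 2 of the 8 fits that left out 1 library.

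Id3, the most abundant of the 10 per length, had values of 3229, 3833, 5287 and 5012 in E12.5 controls and 2443, 1379, 2390.3 and 1694 in E13.5 controls. The groups were separate, with a log2 change of -1.15 ± 0.27 (adjusted p = 0.0105). In mutants it had 4554, 5438, 4567 and 7079 at E12.5 and 977, 2675, 2241 and 1744 at E13.5 (log2 change -1.57 ± 0.27, adjusted p = 0.000486). Id1 ran from 649 to 1505 in E12.5 controls and from 342 to 849 in E13.5 controls, with 1 E13.5 library inside the E12.5 range. Its log2 change was -1.099 ± 0.37 in controls, which missed the threshold, and -1.45 ± 0.37 in mutants (adjusted p = 0.00652).

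Of the 4 ligands among the 10 genes, Bmp4 changed most. It had values of 425, 444, 701 and 671 in E12.5 controls and 359, 187, 306 and 266 in E13.5 controls, so that every E13.5 library lay under every E12.5 library (log2 change -1.003 ± 0.30, adjusted p = 0.0322). In mutants it had 612, 669, 635 and 916 at E12.5 and 110.4, 356, 394 and 222 at E13.5 (log2 change -1.52 ± 0.30, adjusted p = 0.00114). Bmp7 ran from 2428 to 3349.7 in E12.5 controls and from 1782 to 2384 in E13.5 controls, 2 ranges that did not meet. Its log2 change of -0.43 ± 0.21 there did not pass (adjusted p = 0.195, limma). In mutants Bmp7 fell, but it passed in only 4 of the 8 fits that left out 1 library (log2 changes from -0.79 to -0.29). Bmp5 and Bmp6 had log2 changes of -0.55 ± 0.22 and -0.50 ± 0.25 in controls and of -0.95 and -0.86 in mutants, where both fell. Without replicate 1 of the E13.5 mutants Bmp6 was at -0.54 and did not pass. Bambi and Smad6, the inhibitors, had log2 changes of -0.44 ± 0.23 and -0.36 ± 0.15 in controls and of -0.91 and -0.46 in mutants, where both fell, although Smad6 did not pass without that replicate (-0.31, adjusted p = 0.129). E13.5 NestinCre controls, which have no E12.5 counterpart, were at 276 ± 70.6 normalized counts for Bmp4 and 286 ± 122 for Msx2, close to the 279 ± 72.6 and 292 ± 106 of E13.5 Sox1Cre controls (SD, n = 4).

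Xist, which is transcribed from the inactive X chromosome, was above 1000 normalized counts in 4 of 4 E12.5 controls and in 0 of 4 E13.5 controls, and Y-linked genes showed the opposite. With log2 Xist as a covariate 0 of 10 genes were called in the controls, as were 0 of all genes. In that fit all 10 log2 changes were below 0, with a median of -0.34 against -0.52 without the covariate. Xist did not vary within either control group, so the covariate took its slope from groups with both sexes. The fit therefore cannot tell sex from age in these controls. In the mutants 2 of 4 libraries at each age expressed Xist, and with the same covariate 10 of 10 genes were called there. That fit called 4281 of all genes tested, in either direction. Within the 2 and 2 mutant libraries with Xist, 10 of 10 genes had a lower mean at E13.5 and 9 of 10 did not overlap (Bmp7 did), where 26.0% of all genes were lower without overlap, and the median log2 difference of the 10 was -0.44. Within the 2 and 2 with Y-linked genes, which include replicate 1 of the E13.5 mutants, all 10 did not overlap, where 29.4% of all genes were lower without overlap, and the median was -1.47. Without that replicate 6 of 10 genes passed the test in mutants (Bmp4, Bmp5, Msx2, Id1, Id3 and Bambi), with a median of -0.64. Of all genes tested, 3887 passed in that fit, in either direction. In controls the count fell to 1 (Id3) when replicate 2 or 4 of the E13.5 controls or replicate 3 of the E12.5 controls was left out, and to 2 without replicate 4 of the E12.5 controls. The calls over all genes also fell in these fits, from 1892 to 794, 872, 1200 and 1158 in the same order.

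**Figure D3:**
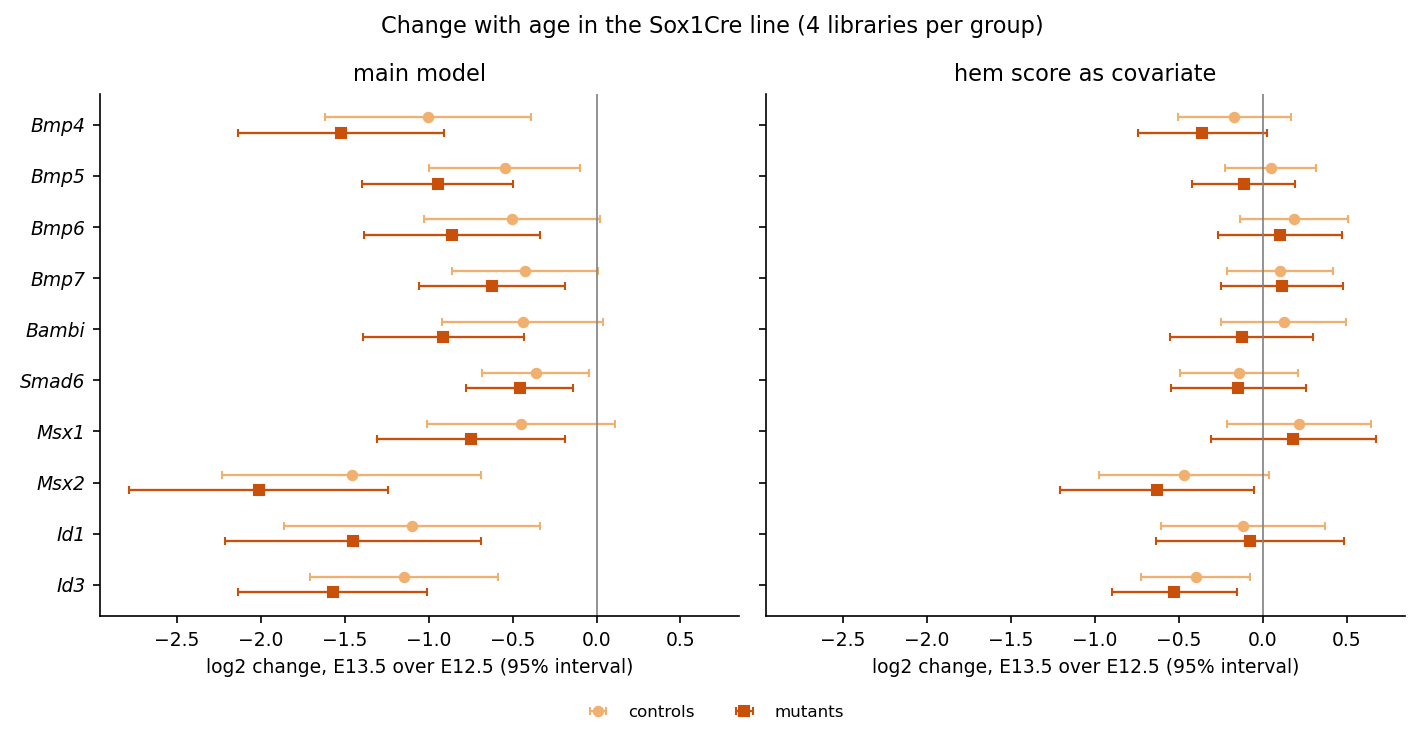
Log2 change from E12.5 to E13.5 of the 10 genes in Sox1Cre controls (circles) and mutants (squares), with 95% intervals from limma, in the main model (left) and with the CH marker score as a covariate (right). On the left all 20 points lie under 0, while on the right they lie around 0, with Msx2 and Id3 lowest. On the right the intervals of Id3 in both genotypes and of Msx2 in mutants do not include 0.

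Of 9 CH markers tested, 5 fell in the controls (log2 changes of -1.103 for Wnt8b, -1.03 for Rspo1, -0.99 for Rspo2, -0.83 for Wnt3a and -0.76 for Rspo3), and 6 fell in the mutants, the same 5 and Lmx1a. Wnt8b and Wnt3a are Wnt ligands of the hem, Lmx1a is its LIM-homeobox factor, and the Rspo genes encode enhancers of Wnt signals. The summed normalized counts of the 10 markers of the list, of which Wnt8b was the most abundant and Gdf7 too low to be tested, were 46477 ± 9907 in E12.5 and 28183 ± 5369 in E13.5 controls and 52972 ± 9974 and 27523 ± 8177 in mutants (SD, n = 4). The choroid plexus markers were 0 of 9 called in controls by limma (5 at an unadjusted p under 0.05), with a median log2 change of 1.13 and summed normalized counts of 23423 ± 5676 at E12.5 and 46803 ± 19052 at E13.5 (SD, n = 4). In mutants 2 of 9 rose, with sums of 33962 ± 9798 and 60096 ± 36104, the latter from 8005 in replicate 1 and between 67070 and 90739 in the other 3. The 10 endothelial markers, whose cells also express Id1 and Id3, were 0 of 10 called in both. Of 10 meningeal markers 2 rose in the controls, and 2 rose and 4 fell in the mutants. Of 9 erythroid markers 6 fell in the controls, and 5 fell and 1 rose in the mutants, with summed normalized counts of 208385 ± 19459 in E12.5 and 117113 ± 39271 in E13.5 controls (SD, n = 4). Of 8 pericyte markers 3 rose and 1 fell in the controls, and 1 rose and 1 fell in the mutants. Of 7 Cajal-Retzius cell markers 2 rose in the controls, and 2 rose and 3 fell in the mutants, and of 8 macrophage markers 0 were called in either genotype by limma (1 at an unadjusted p under 0.05 in each). The list of the neuroepithelium itself is reported in part, without a count over the list. Among its genes reported here, Lhx2, Pax6, Emx1, Nes and Lef1 rose in the mutants, by 0.57, 0.52, 0.41, 0.40 and 0.19 on the log2 scale, and did not pass in the controls (0.22, 0.27, 0.12, 0.20 and -0.12). Emx2 fell in both genotypes (log2 changes of -0.22 and -0.24), and Sox2 passed in neither (-0.16 and -0.13). The counts of the lists stand against 5.17% of all genes lower and 6.33% higher in controls and 12.1% and 13.8% in mutants, and the part of these cells in the BMP values was not tested. The part that the amount of CH in a dissected piece plays in the BMP values was not tested.

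With the mean log2 level of the 9 tested CH markers as a covariate, a setting added after the values had been seen, 0 of 10 BMP genes were called with age in the controls and 0 of 10 in the mutants. The median log2 change over the 10 was then -0.03 in controls and -0.12 in mutants. Msx2 went from -1.46 and -2.01 to -0.47 ± 0.24 and -0.63 ± 0.28, and Id3 from -1.15 and -1.57 to -0.40 ± 0.16 and -0.53 ± 0.18, the lowest pair of the 10 in both genotypes. Neither passed the limma test (adjusted p = 0.3 and 0.222 for Msx2, 0.182 and 0.125 for Id3). The 95% intervals, which are not adjusted, left out 0 for Id3 in controls (-0.72 to -0.07) and in mutants (-0.90 to -0.16). For Msx2 the interval left out 0 in mutants (-1.21 to -0.05) but not in controls (-0.98 to 0.04). Age and the CH score moved together in these libraries, and with the covariate 0 of all genes were called in controls and 18 in mutants. The cause of these moves was not tested. For the comparisons of mutants with controls the same covariate narrowed the error, from a median SE of 0.26 to 0.14 on the log2 scale. Again 0 of 10 genes were called in each comparison, and the 95% intervals of the 10 genes then ran from -0.62 to 0.67 with Sox1Cre at E13.5, from -0.50 to 0.46 with NestinCre and from -0.46 to 0.63 at E12.5. The interval of Bambi at E12.5 left out 0, with a log2 change of 0.31 (0.0004 to 0.62). Its limma p was 0.0497 before adjustment and 0.393 after it. The CH markers were 0 of 9 called in all 3 comparisons, but a score that responds to the genotype would hide a shared change.

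The 10 genes moved together from library to library within a group. Over 24 libraries the mean log2 level of the 10 had a Pearson r of 0.96 with the CH score, and after subtraction of the group means r was 0.90. These are descriptions over libraries that share their dissection and sequencing, and the deviations without replicate 1 of the E13.5 Sox1Cre mutants had an r of 0.88. Ttr, the choroid plexus marker, had r of -0.08 over the values and 0.55 over the deviations, and without that replicate these were -0.48 and 0.19. Among the 45 pairs of the 10 genes, r over the deviations ranged from 0.42 to 0.94 with a median of 0.84. Kdr, the endothelial marker, had a median r with the 10 genes of 0.32 over the values and 0.58 over the deviations, and Col3a1, a collagen of the meninges, of 0.71 and 0.66. The r values of the pairs, of Kdr and of Col3a1 are given only with replicate 1 of the E13.5 Sox1Cre mutants included. The mean log2 level of the 10 genes in that library had a deviation of -0.98 from its group mean.

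**Figure D4:**
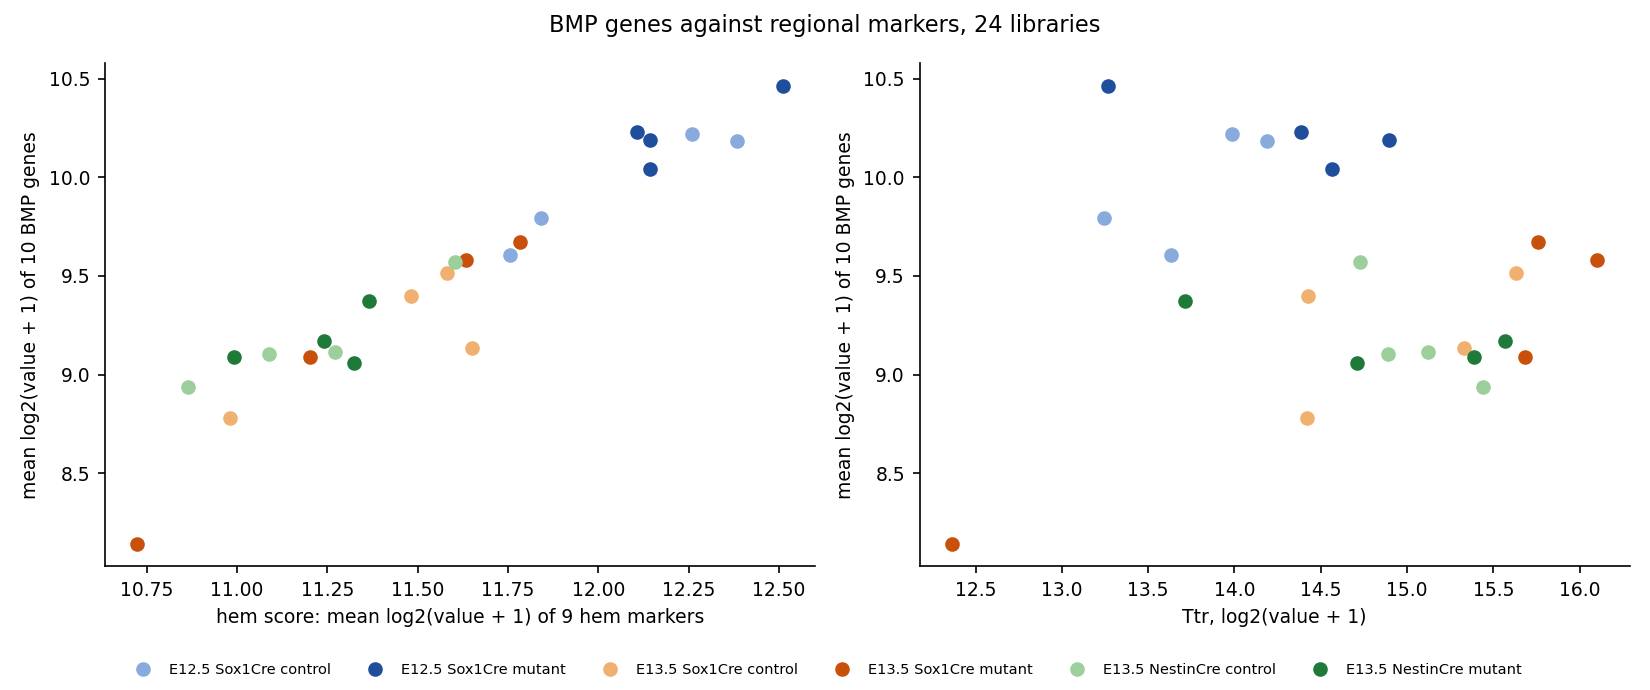
Mean log2(value + 1) of the 10 BMP genes against the CH marker score (left) and log2(value + 1) of Ttr (right) in 24 libraries, coloured by group. The points rise with the CH score (r = 0.96), whereas r with Ttr is -0.08, or -0.48 without the lowest library.

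The 2 genes outside the set with the highest correlation over 24 libraries were named for each of the 10, among genes with a mean of at least 100. For Bmp4 they were Casz1 and Sulf2 (r = 0.97 and 0.96), for Msx2 Casz1 and Rspo2 (0.97 and 0.97), for Id3 Large2 and Zcchc12 (0.98 and 0.98), and for Id1 Klhdc8b and Epb41l4a (0.97 and 0.96). For Bmp5 they were Lmx1a and Wls (0.97 and 0.96), for Bmp6 Ezr and Glmp (0.98 and 0.95), for Bmp7 Nkd1 and Patj (0.95 and 0.94), and for Msx1 Pthlh and Itpr1 (0.96 and 0.95). For Bambi they were Gsn and Adamts15 (0.95 and 0.95), and Smad6 had the weakest likeness, to Il11ra1 and Rara (0.88 and 0.88). Lmx1a and Rspo2 belong to the CH marker list. When group means were subtracted first, 3 of the 20 pairs were named again, that is the same gene for the same member (Ezr for Bmp6, Casz1 for Msx2 and Rara for Smad6).

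A ratio of 2 genes within a library does not depend on the size factor of that library, and 4 pairs were formed after the values had been seen. Msx2 over Msx1 was 0.39, 0.40, 0.45 and 0.42 in E12.5 controls and 0.285, 0.184, 0.185 and 0.183 in E13.5 controls. In mutants it was 0.398, 0.514, 0.296 and 0.516 at E12.5 and 0.187, 0.249, 0.179 and 0.11 at E13.5. All 8 E13.5 libraries of the Sox1Cre line were under all 8 of its E12.5 libraries, and the log2 difference was -1.01 ± 0.16 in controls and -1.27 ± 0.31 in mutants. Bmp4 over Bmp7 was also lower at E13.5 without overlap, at 0.131 ± 0.024 against 0.195 ± 0.031 in controls and 0.117 ± 0.016 against 0.218 ± 0.031 in mutants (SD, n = 4). The exact permutation test gave p = 0.0286 for each of these 4 differences, the smallest it allows, and 0.143 after adjustment over 20 tests (4 ratios in 5 comparisons), so none passed the correction. Replicate 1 of the E13.5 Sox1Cre mutants, lowest in both Msx genes, had a ratio of 0.187, inside the range of its group. In the NestinCre line, replicate 2 of the E13.5 controls had 0.298 for Msx2 over Msx1, above the lowest E12.5 library (0.296), and 0.183 for Bmp4 over Bmp7, inside the range of the E12.5 libraries, as was replicate 4 of the mutants at 0.179. Id3 over Id1 (4.05 ± 0.72 in E12.5 and 3.96 ± 0.89 in E13.5 controls) and Bmp6 over Bmp5 (0.823 ± 0.119 and 0.847 ± 0.111) overlapped between the ages, and none of the 4 ratios was separate between mutants and controls in any comparison.

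**Figure D5:**
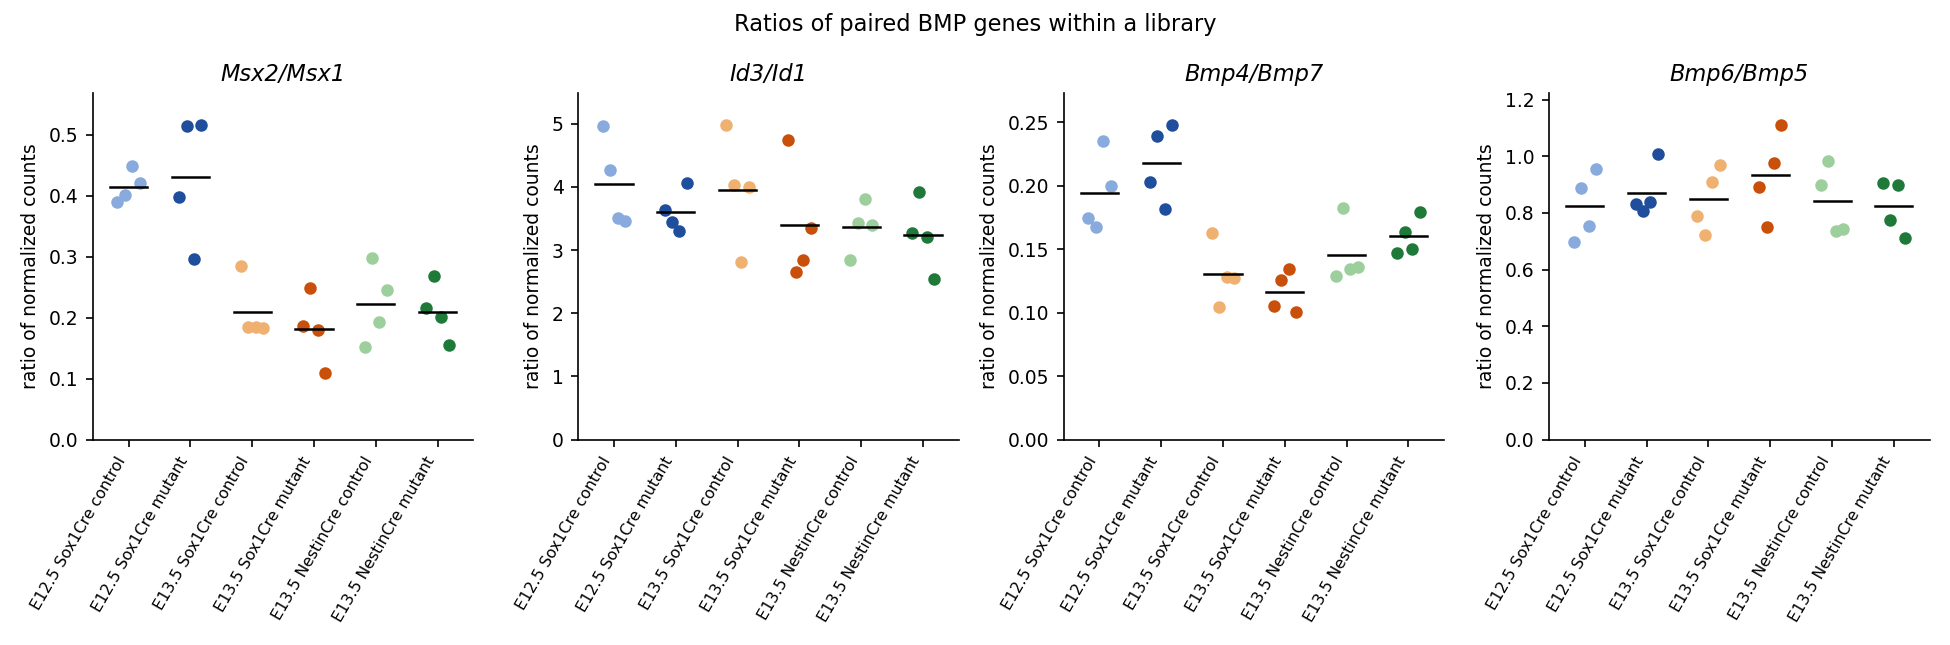
Ratio of the normalized counts of 2 genes within each library for 4 pairs, with 1 point per library and a bar at each group mean. Msx2 over Msx1 and Bmp4 over Bmp7 are lower in the E13.5 than in the E12.5 Sox1Cre groups without overlap, and Id3 over Id1 and Bmp6 over Bmp5 overlap.

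The wider pathway was examined with 50 other genes, of which 44 were tested. In the comparisons of mutants with controls 0 of 44 passed in Sox1Cre mutants at E13.5 (5 at an unadjusted p under 0.05, where 11.7% of all genes were), 0 in NestinCre mutants (3, where 6.47% were) and 0 in Sox1Cre mutants at E12.5 (11, where 2217 of 16454 genes were). Their most abundant members were present in every library: the type I receptor Bmpr1a at 4915 to 6493 normalized counts, the signal transducer Smad5 at 6992 to 9387, the co-receptor Rgma at 4053 to 7661, the nuclear co-repressor Ski at 4502 to 5659 and the follistatin-like Fstl1 at 5007 to 12264. Id4 ran from 1777 to 8975, Gdf5 from 93.1 to 1027 and the procollagen protease Bmp1 from 1229 to 2288. Of 10 further ligands 4 passed the filter on low values.

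With age, 7 of the 44 fell and 2 rose in Sox1Cre controls, and 10 fell and 9 rose in the mutants. Over all genes tested, 5.17% fell and 6.33% rose in controls and 12.1% fell and 13.8% rose in mutants. Sex and age cannot be told apart in these controls, and with Xist as a covariate 0 of all genes were called there. In the mutants a fit of the compared groups alone called fewer genes, as given above. Bmp2, a ligand close to Bmp4, had values of 213, 184, 337 and 339 in E12.5 controls and 146, 91.4, 137 and 133 in E13.5 controls. Its groups were separate, and its log2 change was -1.04 in controls and -1.74 in mutants. Bmp3, a divergent ligand of the family, was higher at E13.5, with 33.9, 36.4, 64.3 and 89.2 in E12.5 mutants and 323, 123, 136 and 314 in E13.5 mutants. It rose by 1.95 in mutants (adjusted p = 0.0172, limma) and its log2 change in controls was 1.37, which did not pass (adjusted p = 0.133). Grem1, a secreted BMP antagonist, fell in both genotypes from low levels (26.3 to 119.9 at E12.5 and 4.53 to 12.3 at E13.5 in controls), with log2 changes of -2.63 and -2.19. The other genes that fell in both genotypes were Smad9, a receptor-activated Smad (log2 changes of -1.03 in controls and -1.07 in mutants), the response genes Atoh8 (-0.66 and -0.79) and Hey1 (-0.51 and -0.36), the type II receptor Acvr2b (-0.44 and -0.64) and the protease Bmp1 (-0.31 and -0.46). Tll1, a related protease, rose by 0.88 and 1.07, and Zeb2, a Smad-binding repressor, by 1.02 and 1.05. Id2, of the same family as Id1 and Id3, fell in mutants (log2 change -0.81) while Id4 rose by 0.92 there. Of the receptors and transducers, Bmpr1b, a type I receptor, rose by 0.71 in mutants and Smad1 by 0.17, whereas Bmpr1a, Bmpr2, Smad4 and Smad5 were called in neither genotype. Of these genes, Bmp3 and Smad1 did not pass in the mutants without replicate 1 of the E13.5 mutants. Gdf5 (log2 change -1.34, adjusted p = 0.0428, limma) and Fstl1 (-0.51) also fell in the mutants, and Rgma (0.32), Acvr2a (0.21) and Ski (0.18) rose. Apart from Ski, the groups of these genes overlapped, and for them the fit without that replicate is not given. Gdf5 was at 93.1 normalized counts in that replicate and at 856, 698 and 330 in the rest of its group.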

How the data were processed

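Bulk mRNA libraries (KAPA mRNA HyperPrep, Illumina sequencing) of dissected ARK were processed by the authors with Trimmomatic 0.36, STAR 2.5.2a and RSEM 1.2.31 on GRCm38, and the deposited signal values are RSEM counts normalized by DESeq2, that is divided by a size factor per library. Whole reads could be recovered from 100% of these values (tolerance 0.01). The test covered the 16454 of 51912 genes that reached 10 in 4 or more libraries, and limma 3.58.1 (with a trend) modelled the 6 group means on the log2(value + 1) scale, two-sided, with Benjamini-Hochberg adjustment over all genes tested and a threshold of 0.05. Fold changes on this scale understate those of low genes. edgeR 4.0.16 and DESeq2 1.42.0 were run on the recovered reads as alternatives, and single values were compared by exact permutation tests (scipy 1.17.1). Scripts were tested on simulated data. The labels give groups but no replicate numbers, so replicates were numbered in accession order. The 10 genes, the marker and pathway lists and the comparisons were chosen with earlier results of these data known. Named genes were the 10 members, Sox9, the listed markers and pathway genes, and the 2 genes most correlated with each member among those with a mean of at least 100. The covariate of CH markers and the age comparison in mutants were added after the data had been seen. 1 marker gene is not reported here. Depth lay between 16163560 and 49445219 reads on genes.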

Additional observations from a re-analysis of the deposited data

Results flagged for a closer look

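In 5 of 60 groups of 4 libraries 1 library lay far from the other 3, with a gap to its nearest neighbour that exceeded the 95% critical value of Dixon for 4 values as a share of the range. Chance gives this in about 1 in 20 groups, and the groups of genes that move together are not independent. Replicate 4 of the E12.5 Sox1Cre mutants was high for Bmp5, at 1226.16 normalized counts (gap 0.836 of the range), and for Bmp6, at 1237.63 (0.892). Replicate 2 of the E13.5 NestinCre controls was high for Bmp6, at 625.458 (0.86), for Msx1, at 1531.35 (0.96), and for Id1, at 786.467 (0.858). The latter library held the highest value of its group for 10 of the 10 genes.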

How the results depend on the processing

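No paired analysis was possible because the labels give the groups no shared replicate numbers. The count of the 10 BMP genes called was 0 in each comparison of mutants with controls under every alternative and with each library left out. For age in Sox1Cre controls it was 3, and 5 in a fit of the compared groups only and 6 with array weights. It was 0 with Xist and 0 with the CH score as a covariate, and 2 without a filter. Quantile normalization, edgeR and DESeq2 each gave 4, and fits with 1 library left out gave 1 to 4. For age in mutants it was 10, and 3 with the compared groups only, 6 with array weights and 0 with the CH score. It was 7 without a filter, 8 with edgeR and 6 to 10 with 1 library left out. With the CH score the change with age in mutants turned to 0.10 for Bmp6, 0.12 for Bmp7, 0.18 for Msx1 and 0.14 for Gdf5 on the log2 scale. In controls it turned to 0.05 for Bmp5, 0.19 for Bmp6, 0.10 for Bmp7, 0.21 for Msx1 and 0.12 for Bambi. For Sox1Cre at E13.5 the 152 genes became 44 with the compared groups only, 229 with the CH score, 962 with array weights, 358 with DESeq2 and 90 to 510 with 1 library left out (510 without replicate 1 of the mutants). For NestinCre the 11 became 5 without a filter, 5 with a mean of at least 100, 2 with Xist, 17 with array weights, 5 with edgeR, 37 with DESeq2 and 2 to 7. For Sox1Cre at E12.5 the 119 became 76 with the compared groups only, 577 with array weights, 294 with DESeq2 and 50 to 139. The difference between Cre lines (7) became 13, 369 and 95 under the same 3 settings and 5 to 144, and that between ages (0) became 20 with DESeq2 and 0 to 1. For age in controls the 1892 became 0 with Xist, 0 with the CH score, 3244 with array weights and 794 to 2629, and in mutants the 4263 became 2133 with the compared groups only, 18 with the CH score and 2948 to 4725. The 40 genes between control lines became 22 with a mean of at least 100, 88 with the CH score, 108 with array weights, 157 with DESeq2 and 11 to 31. The cause was not tested. The median genotype change of the 10 genes was above 0 under every setting at E12.5, and for Sox1Cre at E13.5 it was -0.10, -0.22 with Xist, 0.26 with array weights and 0.22 without replicate 1 of the mutants. In the latter comparison it was also -0.016 with edgeR, -0.016 with DESeq2, -0.0009 with the CH score and -0.26 without replicate 2 of the controls.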
